A study of Rattus norvegicus with 8 samples.

Results

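The 10 genes described here regulate G1 and were listed for their part in the growth of the beta cell population. Ccnd1, Ccnd2 and Ccnd3 encode D-type cyclins, and Cdk4 and Cdk6 encode cyclin-dependent kinases. Cdkn1a, Cdkn1b, Cdkn2a and Cdkn2c encode kinase inhibitors, and Rb1 encodes the retinoblastoma protein. The 10 genes were listed by name, and all were found among the 14506 genes measured, each with 1 probe set. The islets came from fetuses of Sprague-Dawley rats on embryonic day 19. The dams of 4 litters had surgery on embryonic day 18 that restricts fetal growth in the uterus (intrauterine growth restriction, IUGR). The dams of 4 other litters had a sham operation on the same day, so both groups carry the effects of an operation 1 day earlier. All islets of a litter were pooled onto 1 array, so the litter is the replicate, and a pool of fetuses and cell types cannot tell fewer cells of a type from less RNA per cell.

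In G1, D-type cyclins bind and activate the kinases CDK4 and CDK6. The active kinases phosphorylate the retinoblastoma protein, the product of Rb1, which then releases E2F transcription factors that switch on genes of DNA replication. Inhibitors of the INK4 family, such as the products of Cdkn2a and Cdkn2c, bind the kinases directly, while those of the CIP/KIP family, such as the products of Cdkn1a and Cdkn1b, act on cyclin-kinase complexes. In mice, loss of Cdk4 or Ccnd2 leaves too few beta cells after birth, and the fetal endocrine pancreas grows by division as well as by differentiation of progenitors.

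Values are log2 expression values, and each difference is IUGR minus sham. Differences were tested with limma over all 14506 genes, with Benjamini-Hochberg adjusted p-values and a threshold of 0.05. None of the 10 genes passed, and 36 genes, or 0.248% of all genes, did. Of the 10, 6 were higher and 4 lower in IUGR islets, with a median difference of 0.02, beside a median of 0.04 over all genes. Over all genes 55.1% were higher. Without the 30% dimmest genes, to which Cdkn2a belongs, the median over the remaining genes was 0.14. That of the remaining members was 0.0155. Before adjustment, 3 of the 10 had a p under 0.05: Ccnd2 and Cdkn1a, which were higher in IUGR, and Cdkn2c, which was lower. Over all genes 26.1% reached that mark, so a count of 3 in 10 is near the background.

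Over the 14506 genes the arrays were not alike. Interquartile ranges and medians were taken over these genes, not over all 29214 probe sets. The interquartile range on single arrays lay between 3.53 and 3.62 for IUGR litters. It was 3.63 in sham replicate 1 and 3.20, 3.23 and 3.06 in sham replicates 2, 3 and 4. The medians over these genes were 8.76 to 8.85 in IUGR litters, 8.81 in sham replicate 1 and 8.48 to 8.55 in sham replicates 2 to 4. Endocrine markers (13 genes, among them Ins1, Ins2 and Gcg) were present on every array, with a list mean of 11.30 to 11.83 in IUGR litters, against 10.82 to 10.997 in sham replicates 1 to 3 and 12.43 in sham replicate 4. Sham replicate 4 thus stood apart from the other sham litters in these markers. Markers of other cells, apart from lymphocytes, were bright as well. All 11 duct and progenitor markers were higher in IUGR islets, with list means of 10.81 to 11.45 in IUGR and 9.78 to 10.46 in sham litters. All 18 acinar markers were higher, at 10.83 to 11.78 in IUGR and 9.25 to 10.72 in sham litters, and all 18 liver protein genes, at 11.33 to 12.78 in IUGR and 8.87 to 11.54 in sham litters. All 14 mesenchyme markers were lower, at 10.47 to 11.65 in IUGR and 11.67 to 12.04 in sham litters. All 13 macrophage, 10 erythroid and 12 endothelial markers were lower too, with list means that overlapped between the groups. Without sham replicate 4, 8 of the 12 endothelial markers were lower and 4 higher, while all macrophage and erythroid markers stayed lower. Of 10 lymphocyte markers 9 were lower, with list means of 7.01 to 7.36 in IUGR and 7.41 to 7.78 in sham litters. These means lay below the median over the 14506 genes on every array. A log2 table holds no zero, and no detection call was used. The part that these cell types had in the values below was not tested.

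**Figure D1:**
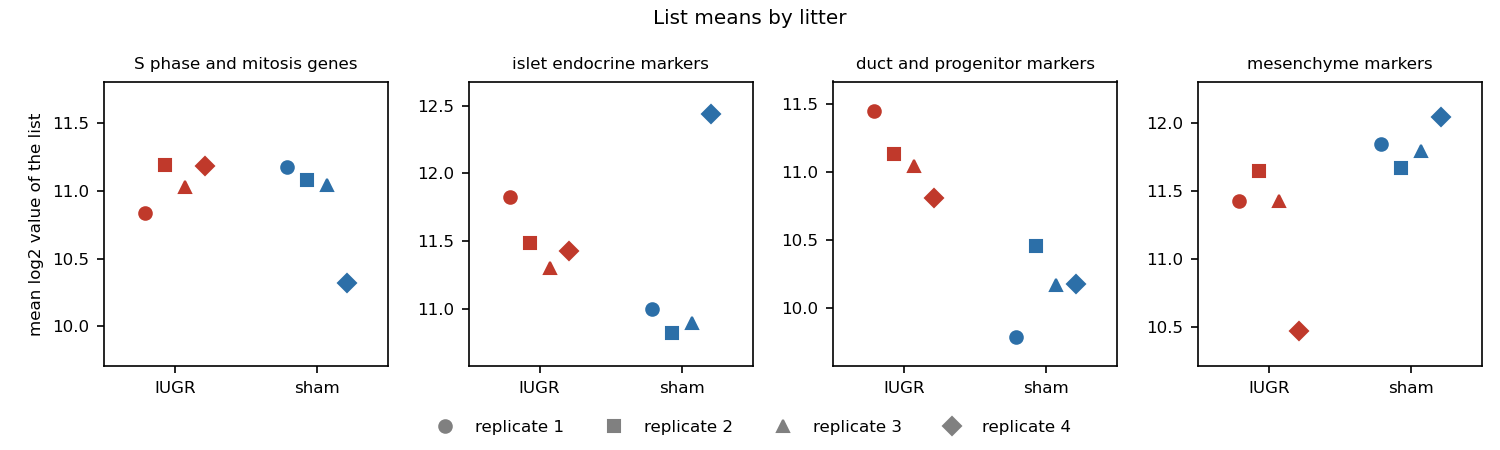
Mean log2 value of 4 gene lists (y axis) in each litter, IUGR litters left and sham litters right, 1 point per litter with the replicate number shown by the symbol; all panels span the same range. Sham replicate 4 lies at 10.32 for S phase and mitosis genes and at 12.43 for endocrine markers, away from the other sham litters.

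Among the D-type cyclins, Ccnd2 was the gene that separated the groups on the deposited values. Ccnd2 encodes cyclin D2, the D-type cyclin that mouse beta cells most depend on. It lay at 12.73, 12.74, 12.58 and 12.76 in IUGR replicates 1 to 4, against 12.20, 12.21, 12.33 and 12.43 in sham replicates 1 to 4. Every IUGR litter was above every sham litter, and the gap between the lowest IUGR and the highest sham litter was 0.14. The difference was 0.41 ± 0.09 (SE, n = 4 litters per group), a 1.33-fold higher mean, with a limma adjusted p of 0.080, so it did not pass. Its unadjusted p ranked 281 of 14506. Without sham replicate 1 it passed (0.37, limma adjusted p = 0.030), where 18.9% of all genes passed. With any other single litter left out it did not, the difference lying between 0.38 and 0.45. Without sham replicate 4, where 1.08% of all genes passed and none of the 10, the difference was 0.45 (limma adjusted p = 0.054).

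Ccnd1 and Ccnd3, which encode the other D-type cyclins, did not separate the groups on the deposited values. Ccnd1 lay at 11.55, 11.68, 11.32 and 11.57 in IUGR litters, against 11.78, 11.53, 11.57 and 11.59 in sham litters. It differed by -0.09 ± 0.10 (SE), with a 95% interval of -0.32 to 0.15. Ccnd3 lay at 12.33, 12.32, 12.24 and 11.83 in IUGR litters, against 12.47, 12.36, 12.32 and 12.21 in sham litters. Its lowest value was that of IUGR replicate 4, and without that litter the difference of -0.16 ± 0.13 (SE) was -0.05.

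The kinase genes were nearly level between the groups. Cdk4, whose product is the main partner of cyclin D2 in beta cells, lay at 12.99, 13.12, 13.02 and 13.04 in IUGR litters, against 13.03, 12.96, 12.92 and 13.14 in sham litters. It differed by 0.03 ± 0.08 (SE), and the 95% interval of -0.16 to 0.21 was the narrowest of the 10 genes. Cdk6 encodes the kinase most like CDK4 and lay at 10.18, 10.22, 10.23 and 10.07 in IUGR litters, against 10.33, 9.95, 9.96 and 10.40 in sham litters. It differed by 0.02 ± 0.12 (SE), with a 95% interval of -0.27 to 0.30. The sham litters spread around the IUGR litters: sham replicates 1 and 4 lay above all of them and sham replicates 2 and 3 below all of them.

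**Figure D2:**
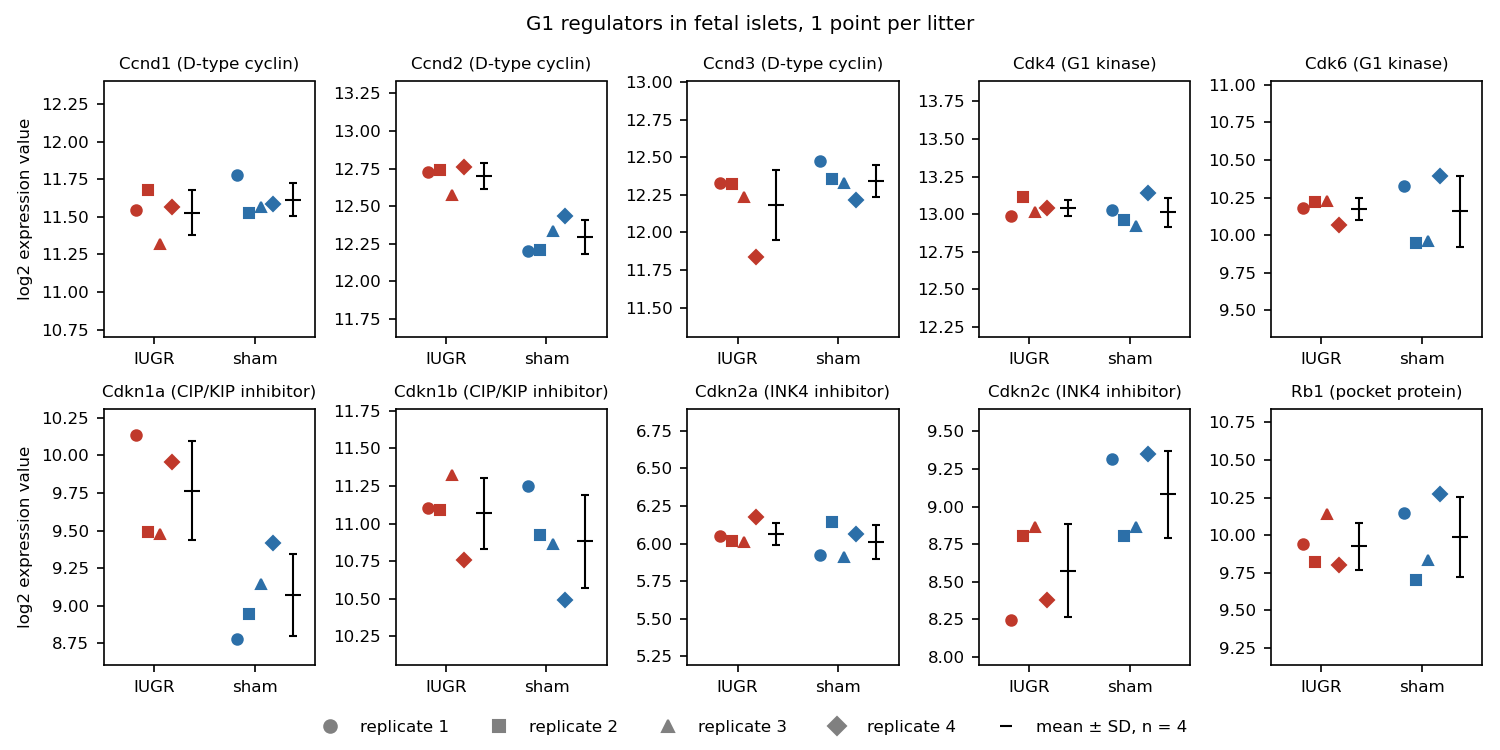
Log2 expression value (y axis, each panel spanning the same range) of the 10 G1 regulators in each litter, IUGR left and sham right, with the mean ± SD of 4 litters as a black bar. For Ccnd2 and Cdkn1a no IUGR litter overlaps a sham litter, and for the other 8 genes the groups overlap.

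Of the CIP/KIP inhibitors, Cdkn1a had the largest difference of the 10 genes. Cdkn1a encodes p21, which p53 is known to induce and which halts cells in G1. It lay at 10.13, 9.49, 9.48 and 9.96 in IUGR litters, against 8.78, 8.95, 9.15 and 9.41 in sham litters. The groups did not overlap, but IUGR replicates 2 and 3 lay only 0.06 or slightly more above sham replicate 4. The difference was 0.69 ± 0.19 (SE, n = 4 per group), a 1.62-fold higher mean, with a 95% interval of 0.25 to 1.14 and a limma adjusted p of 0.120. Its spread within groups was also the widest of the 10 among IUGR litters (SD 0.33 in IUGR and 0.27 in sham litters). It did not pass with any litter left out, the difference lying between 0.57 and 0.81.

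Cdkn1b encodes p27, an inhibitor that in mice restrains beta cell division. It lay at 11.10, 11.09, 11.33 and 10.76 in IUGR litters, against 11.25, 10.92, 10.87 and 10.49 in sham litters, and the groups overlapped. The difference of 0.18 ± 0.18 (SE) had a 95% interval of -0.22 to 0.59. Its lowest value among all litters was that of sham replicate 4, and without it the difference was 0.06.

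Cdkn2c, which encodes the INK4 inhibitor p18, was the gene of the 10 with the largest lower mean in IUGR islets. It lay at 8.24, 8.81, 8.86 and 8.38 in IUGR litters, against 9.31, 8.80, 8.86 and 9.35 in sham litters. IUGR replicates 1 and 4 were low and sham replicates 1 and 4 high, while the other IUGR and sham litters lay together. The difference was -0.51 ± 0.19 (SE, n = 4 per group), a mean of 0.702 times that in sham litters, with a 95% interval of -0.95 to -0.07 and a limma adjusted p of 0.154.

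Cdkn2a is the locus of the INK4 inhibitor p16 and of the p53 activator Arf, and the annotation of its probe set does not tell these transcripts apart. It lay at 6.05, 6.02, 6.01 and 6.17 in IUGR litters, against 5.92, 6.14, 5.91 and 6.07 in sham litters, and differed by 0.05 ± 0.09 (SE). Cdkn2a was the 1 gene of the 10 among the 30% of genes with the dimmest mean, where a probe set can read mostly background. In mouse islets p16 is known to be low early in life and to build up with age. Rb1, the target of the kinases, lay at 9.94, 9.82, 10.14 and 9.80 in IUGR litters, against 10.15, 9.70, 9.84 and 10.28 in sham litters, and differed by -0.06 ± 0.15 (SE). As for Cdk6 and Cdkn2c, the highest sham values of Rb1 were those of replicates 1 and 4.

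Of the 10 genes, 2 were without overlap between the groups, both higher in IUGR, and none was without overlap and lower. Over all genes 15.5% had no overlap, 10% with IUGR above and 5.45% with IUGR below. That count of 2 in 10 is not far from the background. Which genes were without overlap also changed with how the arrays were scaled. After quantile normalization the 3 genes without overlap were Cdkn2c and Ccnd3, lower in IUGR, and Cdkn2a, higher (14.7% of all genes, 7.24% higher and 7.5% lower), while Ccnd2 and Cdkn1a overlapped. Cyclic loess left Cdkn2c, lower, and Cdkn2a, higher (14.5% of all genes, 7.46% higher and 7.01% lower). With median centring the median over all genes became -0.19, and the genes without overlap were Ccnd1, Ccnd3, Cdk6 and Cdkn2c, all lower (15.1% of all genes, 2.64% higher and 12.5% lower).

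Ccnd2 kept a positive difference on each of these scales, at 0.33 with quantile normalization, 0.35 with cyclic loess and 0.18 with median centring. After quantile normalization sham replicate 4 lay at 12.60, above IUGR replicate 3 at 12.56, while the other sham litters lay at 12.13 to 12.36. After median centring sham replicates 2, 3 and 4 all lay above IUGR replicate 3. Cdkn1a differed by 0.46, 0.48 and 0.46 in the same order. Cdkn2c lay farther from 0 on these scales, at -0.75, -0.70 and -0.74 in the same order. After quantile normalization it was 8.15, 8.66, 8.71 and 8.33 in IUGR litters, against 9.18, 9.02, 9.02 and 9.60 in sham litters, with a limma adjusted p of 0.142. None of the 10 genes passed on any of the 3 scales, where at most 1 gene of all 14506 did. Limma's array weights, which give less weight to arrays far from their group, called Ccnd2 (0.37), Cdkn1a (0.55) and Cdk6 (0.22), with 43.8% of all genes called. With these weights Cdkn2c differed by -0.22 and did not pass.

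**Figure D3:**
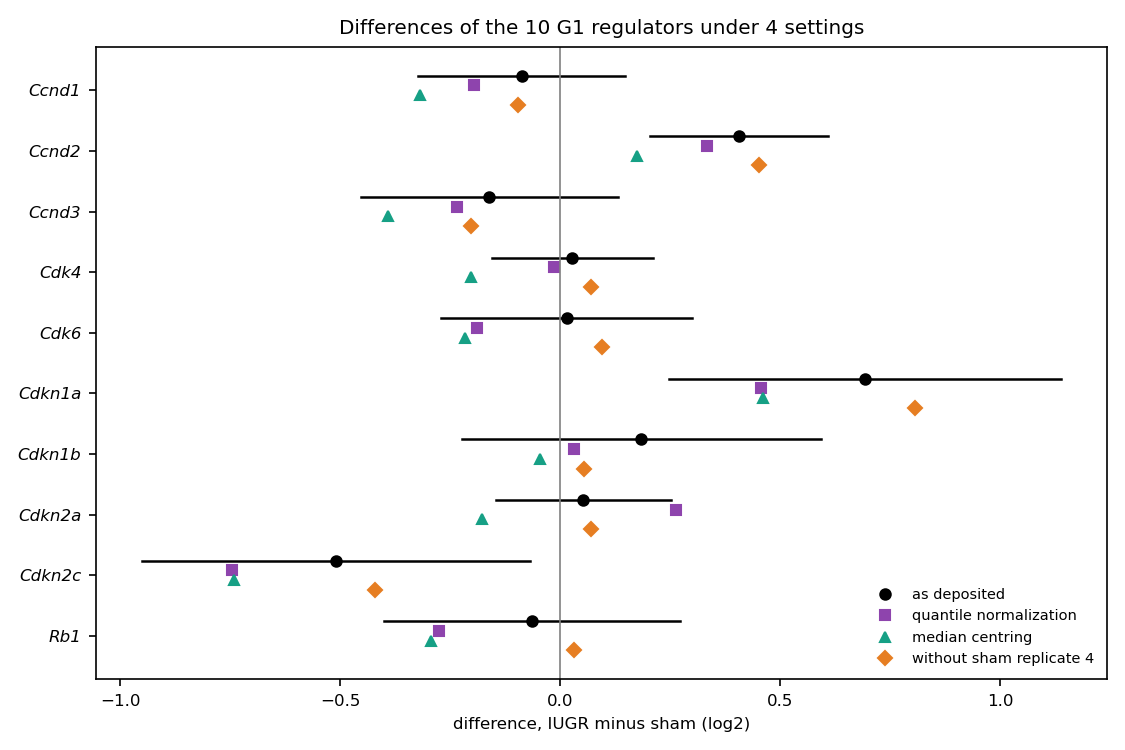
Difference, IUGR minus sham (x axis, log2), of the 10 G1 regulators (rows) on the deposited values with its 95% interval (black), and as point estimates for quantile-normalized values, for median-centred values and without sham replicate 4. Ccnd2 and Cdkn1a stay right of 0 and Cdkn2c left of 0 under all 4 settings, while Cdk4, Cdk6, Cdkn1b, Cdkn2a and Rb1 take both signs.

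The genes whose values ran closest to those of the leading 3, by root mean square distance after each gene was centred over the 8 litters, are given as a description. Through this choice their differences resemble those of the member, so they are no separate result. Nearest to Ccnd2 were Tmbim6 (distance 0.05 on the log2 scale, beside a spread of Ccnd2 itself of 0.22), Ddx25 and Dynll2 (0.05 each). Nearest to Cdkn1a, with a spread of its own of 0.43, were Tob1 (0.09), Ptpn3 (0.10) and Fgfr2 (0.11). Tob1 encodes an antiproliferative protein and Fgfr2 a growth factor receptor of pancreatic progenitors. Fgfr2 differed by 0.79 ± 0.17 (SE), Ptpn3 by 0.86 ± 0.20 (SE) and Tob1 by 0.68 ± 0.20 (SE). None of them passed (limma adjusted p of 0.080, 0.091 and 0.126). Nearest to Cdkn2c, with a spread of 0.36, were Akna (0.09), Hcst (0.11) and Irs1 (0.12). Irs1, an adaptor of the insulin and IGF receptors, differed by -0.47 ± 0.16 (SE), and Hcst, an adaptor of lymphoid receptors, by -0.35 ± 0.15 (SE). Akna differed by -0.42 ± 0.18 (SE).

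Beyond the 10 genes, 24 of 31 other listed genes of G1 and the restriction point were measured. None of them passed, 16 were higher and 8 lower, and their median difference was 0.16. Over all genes 55.1% were higher, with a median of 0.04, or 0.14 without the 30% dimmest genes. The balance of the 24 moved with 1 litter and with scaling: 13 were higher without sham replicate 4 (median 0.04), and 11 after quantile normalization (median -0.06). The CIP/KIP inhibitor gene Cdkn1c, an imprinted gene whose product p57 restrains beta cell division in humans, had the smallest p. It lay at 10.73, 10.68, 10.34 and 10.48 in IUGR litters, against 11.05, 11.47, 11.48 and 11.17 in sham litters. All IUGR litters were lower than all sham litters, by a gap of 0.33, and the difference was -0.74 ± 0.14 (SE, limma adjusted p = 0.070). Cdkn1c, Cdkn1a and Cdkn1b, the 3 CIP/KIP genes, thus differed by -0.74, 0.69 and 0.18. After quantile normalization Cdkn1c differed by -0.88, and without sham replicate 1 it passed (-0.82, limma adjusted p = 0.011), as did 18.9% of all genes.

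Mycn, E2f5 and Myc followed in order of p. Mycn, a growth-promoting transcription factor gene, differed by 0.53 ± 0.15 (SE, limma adjusted p = 0.122), at 8.48 to 8.84 in IUGR litters and 7.89 to 8.57 in sham litters. E2f5, which encodes an E2F factor that represses its targets together with pocket proteins, differed by 0.58 ± 0.17 (SE, limma adjusted p = 0.128), at 11.02 to 11.33 in IUGR litters and 10.12 to 10.90 in sham litters. Myc differed by 0.41 ± 0.20 (SE) and the groups overlapped. Without sham replicate 4 Myc differed by 0.26. After quantile normalization Mycn differed by 0.33, E2f5 by 0.42 and Myc by 0.19.

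Genes of S phase and mitosis lie downstream of the retinoblastoma protein, and 32 of 35 listed were measured. None passed, and 1 (Cdt1) had an unadjusted p under 0.05, beside 26.1% of all genes. Of the 32 genes, 29 were higher and 3 lower in IUGR islets, by a median of 0.15. Over all genes 55.1% were higher, with a median of 0.04, or 0.14 without the 30% dimmest genes. The balance of the 32 rested on 1 litter. The list mean was 10.84, 11.19, 11.03 and 11.18 in IUGR replicates 1 to 4, against 11.17, 11.08, 11.04 and 10.32 in sham replicates 1 to 4. Without sham replicate 4, 8 of the 32 were higher and 24 lower, with a median of -0.04. After quantile normalization 18 were higher and 14 lower, with a median of 0.01.

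The genes of that list with the smallest p showed the same litter. Cdt1, a factor that licenses replication origins, differed by 0.41 ± 0.16 (SE) and by 0.26 without sham replicate 4. Birc5, which encodes survivin, differed by 0.40 ± 0.20 (SE) and by 0.21 without it. Aurka, a mitotic kinase gene, lay at 9.24 to 9.65 in IUGR litters, against 9.27 to 9.52 in sham replicates 1 to 3 and 8.18 in sham replicate 4. Its difference was 0.40 ± 0.28 (SE), and 0.10 without sham replicate 4. Kif11, a spindle motor gene, differed by 0.29 ± 0.17 (SE) and by 0.12 without it. In sham replicate 4, where S phase and mitosis genes were lowest, endocrine markers were highest. Of the 10 G1 regulators, 6 were at their highest of the sham litters there (Ccnd2, Cdk4, Cdk6, Cdkn1a, Cdkn2c and Rb1) and 2 at their lowest (Ccnd3 and Cdkn1b). The share of all genes at their highest or lowest there was not counted, so these counts have no background. That array also had the lowest interquartile range over the 14506 genes (3.06).

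**Figure D4:**
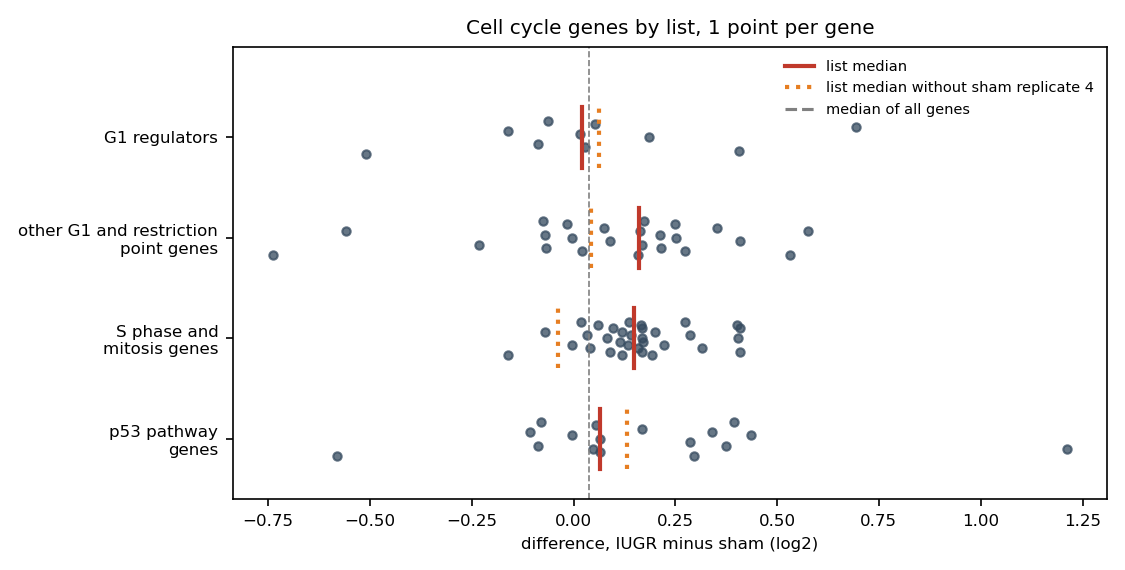
Difference, IUGR minus sham (x axis, log2), of each measured gene in 4 lists (rows), with the list median on all litters (solid), the list median without sham replicate 4 (dotted) and the median of all genes on all litters (dashed). The S phase and mitosis median is 0.15 on all litters and -0.04 without sham replicate 4. The median of all genes is 0.04, and 0.14 when the 30% dimmest genes are left out.

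Because p53 is the known inducer of Cdkn1a, the genes of its pathway were listed too, and 17 of 21 were measured. Of these 12 were higher and 5 lower, with a median of 0.07, and 1 passed. Over all genes 55.1% were higher and 0.248% passed. After quantile normalization 8 of the 17 were higher and 9 lower, with a median of -0.04. The 1 gene that passed on the deposited values was Perp, a p53 target that in mice also builds desmosomes in epithelia under p63. Perp rose by 1.21 ± 0.14 (SE, limma adjusted p = 0.043; 0.139 after quantile normalization, where it did not pass), with values of 12.17, 11.99, 12.08 and 12.04 in IUGR litters, against 10.54, 10.85, 10.83 and 11.21 in sham litters. The duct and progenitor markers, which are epithelial, were higher on the same arrays, as given above. Of the other p53 genes with small p, Mdm4 and Mdm2 were higher and Phlda3 was lower, and none passed. Mdm4 and Mdm2, which encode inhibitors of p53 and of which Mdm2 is also its target, differed by 0.39 ± 0.14 and 0.34 ± 0.13 (SE), and by 0.18 and 0.11 after quantile normalization. Phlda3, a p53 target that represses Akt, differed by -0.58 ± 0.23 (SE), at 8.93 to 9.92 in IUGR litters and 9.79 to 10.40 in sham litters. After quantile normalization Phlda3 differed by -0.79.

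RefSeq promoter windows of 300 bases around the annotated gene start (rat build GRCr8) were found for 7 of the 10 genes: Ccnd3, Cdk4, Cdkn1a, Cdkn1b, Cdkn2a, Cdkn2c and Rb1. The windows of Cdkn1a and Cdk4 are shown because Cdkn1a is known to answer to p53 and, in human cells, CDK4 to MYC, whose genes are described above. The decamer consensus bound by p53 was searched on both strands and stands in capitals in Cdkn1a (chr20:7150682-7150981, plus strand). The E-box CACGTG, the letters bound by Myc factors, reads the same on both strands and stands in capitals 3 times in Cdk4 (chr7:64771203-64771502, plus strand).
Cdkn1a: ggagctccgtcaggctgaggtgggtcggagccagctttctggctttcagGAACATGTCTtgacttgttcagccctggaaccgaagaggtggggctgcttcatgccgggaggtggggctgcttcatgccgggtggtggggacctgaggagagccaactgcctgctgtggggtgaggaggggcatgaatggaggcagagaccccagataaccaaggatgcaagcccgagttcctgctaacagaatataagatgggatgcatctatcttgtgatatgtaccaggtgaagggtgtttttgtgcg
Cdk4: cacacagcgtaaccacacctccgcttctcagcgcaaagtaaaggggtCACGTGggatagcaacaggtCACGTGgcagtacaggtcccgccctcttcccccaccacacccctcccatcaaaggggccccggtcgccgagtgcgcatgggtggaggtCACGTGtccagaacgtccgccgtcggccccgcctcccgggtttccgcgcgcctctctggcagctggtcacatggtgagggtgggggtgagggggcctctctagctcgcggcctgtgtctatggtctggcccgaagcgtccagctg
The p53 decamer was present in 3 of the 7 windows (Cdkn1a, Cdkn2c and Rb1) and in 7.98% of all 33469 rat windows, and the E-box in 1 of 7 (Cdk4) and in 6.42% of all windows. The E2F letters TTTCCCGC, searched on both strands, were present in 1 of 7 (Rb1) and in 0.974% of all windows. The GC box GGGCGG, searched on both strands, was present in 6 of 7 (all but Cdkn1a) and in 33.1% of all windows. No hits of different motifs overlapped in the 7 windows. Of the genes holding the p53 decamer, Cdkn1a differed by 0.69, Cdkn2c by -0.51 and Rb1 by -0.06, and none passed. Whether the letters go with expression was not tested.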

How the data were processed

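RNA of pooled fetal islets was measured on 8 whole-transcript arrays, 1 per litter (4 IUGR, 4 sham). The authors deposited log2 expression values, computed with RMA per the submitters' processing notes. Software version and probe filtering: not given in the sources used here. Of 29214 probe sets, 15310 had 1 gene in the platform annotation, 323 had several and 13581 none. Symbols were updated through RefSeq (GRCr8; 15279 matched), and the brightest probe set per gene left 14506 genes.

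The values were tested without further normalization in R 4.3.3 by limma 3.58.1 (functions lmFit and eBayes with 2 groups, 8.21 total degrees of freedom, two-sided, Benjamini-Hochberg over 14506 genes, threshold 0.05). Arrays have no read depth, and their number limits the precision. P-values measure the spread between litters. No test was run over a list. The test was checked on simulated data. Alternatives were quantile normalization, cyclic loess and median centring, each applied to the values of the 14506 genes. Others were leaving out the 30% dimmest genes, weighting of arrays, a replicate block, averaging probe sets by gene, testing each probe set, and omitting single litters.

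The members and lists were chosen with earlier results of these data known. Named were all members, genes past the threshold or the 4 of smallest p in each pathway list, and the 3 genes closest to each of the 3 members of smallest p. Figures were drawn with matplotlib 3.10.9.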

Additional observations from a re-analysis of the deposited data

Results flagged for a closer look

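Chance marks about 1 in 20 groups of 4 litters as holding a far litter, and 7 of 86 groups examined did. Among the 10 G1 regulators it was 1 of 20: Ccnd2 in IUGR replicate 3 was 12.57, against 12.73 to 12.76 in the other IUGR litters. Kif11 in IUGR replicate 1 was 10.69, against 10.88 to 10.91 in the other IUGR litters. Sham replicate 4 lay away from the other sham litters in the mean of S phase and mitosis genes (10.32, against 11.04 to 11.17) and in the mean of endocrine markers (12.43, where the other 3 held 10.82 to 10.997). The mean of p53 pathway genes was 9.40 in IUGR replicate 4, against 9.51 to 9.52 in the other IUGR litters, and 9.52 in sham replicate 1, with 9.23 to 9.26 in sham replicates 2 to 4. The mean of endothelial markers was 10.49 in IUGR replicate 4, against 11.07 to 11.11 in the other IUGR litters.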

How the results depend on the processing

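Of 159 comparisons of the 10 G1 regulators with an alternative, 141 kept their direction and side of the threshold, 14 changed direction and 4 passed newly. Directions changed in 5 genes: Cdk4 was -0.0143 after quantile normalization and -0.20 after median centring, Cdk6 -0.19, -0.18 and -0.22 after quantile normalization, cyclic loess and median centring, Cdkn1b -0.0458 and Cdkn2a -0.18 after median centring, and Rb1 0.11 with array weights. With each litter left out in turn, Cdk4 lay between -0.0021 and 0.0709, Cdk6 between -0.0546 and 0.095 and Rb1 between -0.16 and 0.0316. The median of the 10 genes was -0.10, -0.0854 and -0.21 after quantile normalization, cyclic loess and median centring, and -0.03 to 0.06 without single litters. Of the 10, 3 passed with array weights (43.8% of all genes) and 0 to 1 without single litters. Median centring left 4 of the 10 without overlap (15.1% of all genes). Over all genes limma called 0 after quantile normalization (3305 had an unadjusted p under 0.05), 0 after cyclic loess (3290 likewise), 1 after median centring, 59 without dim genes, 6358 with array weights, 3 among all probe sets and 0 to 2738 without single litters, the most without sham replicate 1. Array weights called 6 of 24 other G1 genes, 1 of 32 S phase or mitosis genes and 8 of 17 p53 pathway genes. Over all genes these weights called 43.8%. Without single litters the list counts were 0 to 3, 0 and 0 to 4. The counts of 3 and 4 came without sham replicate 1, where 18.9% of all genes passed. Perp, the 1 p53 pathway gene past the threshold, gave way to 0 after quantile normalization, cyclic loess and median centring, among all probe sets and with the replicate block, though its difference stayed between 0.98 and 1.21. It also lost its call in 5 of 8 omissions of a single litter (limma adjusted p of 0.077 to 0.146), with differences of 1.11 to 1.33 over all 8. Cdkn2a was absent without dim genes. The cause of these changes was not tested.

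For same-numbered litters, the correlations of their deviations from the group means, across genes, were -0.435, 0.095, -0.124 and -0.128. Litters of unlike number had correlations of -0.172 to 0.379. Whether same-numbered litters shared a day of surgery or processing cannot be told from these values. With the replicate number as a block, limma called 0 genes (2715 had an unadjusted p under 0.05), Ccnd2 having an adjusted p of 0.252 and Cdkn1a of 0.252.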
